A study of Mus musculus with 16 samples.

Results

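Dusp1, Dusp2, Dusp4, Dusp5, Dusp6 and Spry2 are 6 feedback inhibitors of MAP kinase and receptor tyrosine kinase signaling, and each was found by its symbol among the 14829 genes of a count table from mouse hematopoietic stem cells, which renew all blood lineages. Bone marrow of 4 young and 4 old mice was kept at 37 °C for 1 hour with vehicle or dmPGE2, a stable analogue of prostaglandin E2, and the stem cells were then sorted and their RNA sequenced. The cells of each mouse were divided, so every mouse gave a vehicle and a dmPGE2 library, and the 16 libraries form 4 groups of 4: young vehicle, young dmPGE2, old vehicle and old dmPGE2. No genetic change is named for any group, and the strain, sex, exact ages, dmPGE2 dose and sorting gate were not given here. The sample descriptions carry 2 dates, called date 1 and date 2, with 2 young and 2 old mice on each, and the step done on them is not given.

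MAP kinases carry signals from growth factor receptors and stress sensors to the nucleus and are switched on by phosphorylation of a threonine and a tyrosine. The dual-specificity phosphatases of the Dusp family remove both phosphates. Their genes are themselves induced by the pathway, which makes them brakes that follow the signal. Dusp1, Dusp2, Dusp4 and Dusp5 encode phosphatases of the nucleus and Dusp6 one of the cytoplasm. Dusp5 and Dusp6 act on ERK, whereas Dusp1 also acts on p38 and JNK. Spry2 encodes a Sprouty protein, which acts further upstream and dampens the passage of signals from receptor tyrosine kinases to Ras and Raf. Prostaglandin E2 itself acts on receptors coupled to G proteins, several of which change cAMP.

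The gene models of the table place Dusp1 on chromosome 17 (26505591 to 26508472, minus strand), Dusp2 on chromosome 2 (127336159 to 127338377, plus), Dusp4 on chromosome 8 (34807610 to 34819894, plus), Dusp5 on chromosome 19 (53529318 to 53541322, plus), Dusp6 on chromosome 10 (99263231 to 99267489, plus) and Spry2 on chromosome 14 (105891947 to 105896819, minus), all on mm10. The 6 genes are compact. They span 2219 to 12285 bases and have 2 to 4 separate exon blocks, against a median of 20504 bases and 8 blocks over 14817 genes of the table that lie on 1 chromosome. The Dusp5 model held coding sequence only (1155 bases), so reads from its untranslated regions were not counted. In GENCODE M21 its exons share 338 bases with an antisense gene, and reads of these genes cannot be told apart without strand. No other annotated gene overlaps the exons of the other 5.

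Upstream sequence was available for Dusp1, Dusp2, Dusp5, Dusp6 and Spry2 (RefSeq, GRCm38.p6, the assembly of mm10), from 250 bases before to 50 after the annotated start. Both strands were searched for the cAMP response element TGACGTCA, its shorter core TGACG, which the full element also contains, the AP-1 site TGANTCA and the CArG box, the recognition sequence of serum response factor. The 3 sequences that held a match are printed 5′ to 3′ on the strand of the gene, with every match in capitals, because they show how differently these promoters are built.
Dusp1 (chr17:26508423-26508722, minus): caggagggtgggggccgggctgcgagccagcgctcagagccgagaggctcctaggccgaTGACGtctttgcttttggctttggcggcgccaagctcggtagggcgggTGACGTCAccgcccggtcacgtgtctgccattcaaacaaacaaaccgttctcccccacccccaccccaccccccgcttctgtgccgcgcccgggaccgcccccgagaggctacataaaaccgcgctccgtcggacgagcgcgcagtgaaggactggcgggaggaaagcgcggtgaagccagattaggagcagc
Dusp2 (chr2:127335909-127336208, plus): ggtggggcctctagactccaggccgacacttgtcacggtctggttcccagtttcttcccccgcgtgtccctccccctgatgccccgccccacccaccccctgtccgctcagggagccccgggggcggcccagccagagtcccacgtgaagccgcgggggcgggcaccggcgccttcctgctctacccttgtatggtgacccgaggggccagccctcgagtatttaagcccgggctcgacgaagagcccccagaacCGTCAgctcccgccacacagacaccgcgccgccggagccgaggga
Dusp5 (chr19:53528895-53529194, plus): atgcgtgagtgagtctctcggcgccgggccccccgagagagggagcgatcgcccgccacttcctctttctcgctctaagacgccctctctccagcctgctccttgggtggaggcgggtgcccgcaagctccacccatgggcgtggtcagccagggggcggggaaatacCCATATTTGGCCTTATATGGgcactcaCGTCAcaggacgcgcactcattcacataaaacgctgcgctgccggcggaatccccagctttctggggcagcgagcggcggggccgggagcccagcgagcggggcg

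Dusp1 held a full cAMP response element that begins 143 bases before the start and another copy of the core that begins 191 bases before it. Dusp5 held 2 CArG boxes side by side, which begin 82 and 72 bases before the start, and 1 core on the other strand that begins 55 bases before it. Dusp2 held 1 core on the other strand, 5 bases past the start. None of these letters was found in the Dusp6 and Spry2 windows. Over 32851 promoter windows of the same length, 1.79% held the full element, 20.8% the core, 7.81% the AP-1 site and 1.63% a CArG box. Such matches are letters in a window and do not show binding.

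Libraries held 12960704 to 19226963 counts. All 15 stem cell list genes were above 1 CPM (counts scaled to a common library total) in every combination of age, arm and date. They include Procr, Slamf1, Mecom and Hlf, and also Cd48. The mean level of Cd48 over both arms was higher on date 2 than on date 1, whereas those of the other genes named were lower. In vehicle, 1 of the 15 was called higher on date 2 and 11 lower. The presence of these genes therefore does not show that a library held stem cells only. Libraries of date 2 also held more RNA of other blood cells. In vehicle, the summed level of 17 neutrophil and granule genes was 222 to 447 CPM on date 1 and 2345 to 4738 on date 2, that of 13 T and NK cell genes 41.3 to 101 and 198 to 384, that of 11 erythroid genes 1851 to 2082 and 2299 to 4116, that of 10 monocyte genes 531 to 701 and 983 to 1722, and that of 12 B cell genes 49.7 to 62.2 and 65.1 to 108. The 10 endothelial and stromal genes had 210.0 to 228 and 229.8 to 334 CPM, and the stem cell list 5244 to 6313 and 3803 to 5029 CPM. Single genes made up most of some sums on date 1. These were Car2 in the erythroid sum (means of 1771 and 1801 CPM on the 2 dates), Lyz2 in the monocyte sum (513 and 813) and Cd79b in the B cell sum (46.6 and 49.8). The median log2 differences of date 2 against date 1 in vehicle were 3.37 for the erythroid, 3.26 for the monocyte and 2.75 for the B cell genes tested. In the vehicle libraries of date 1, Fcnb, Pax5, Igll1, Klrd1, Ncr1 and Il7r had no count.

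In vehicle the 6 transcripts covered a wide range of levels. Per kilobase of gene model on date 1, Dusp2 (149 ± 10.5 CPM per kb, SD, n = 4 mice) and Dusp1 (126 ± 37.3) were highest, with a gap smaller than the spread of Dusp1. Dusp6 followed at 35.5 ± 6.07, then Dusp4 at 15.0 ± 5.59 and Dusp5 at 14.6 ± 2.26, which did not differ beyond their spread, and Spry2 was lowest at 3.12 ± 1.45. On date 2 the order in vehicle began with Dusp1 (291 ± 58.7 CPM per kb) and Dusp5 (235 ± 73.3), which overlapped within their spread, ahead of Dusp2 (143 ± 14.7), Dusp6 (57.3 ± 2.82), Dusp4 (19.6 ± 9.28) and Spry2 (6.71 ± 2.26). Dusp5 thus moved from the lower end of the order to the upper end, next to Dusp1. Its value is per coding length only.

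**Figure D1:**
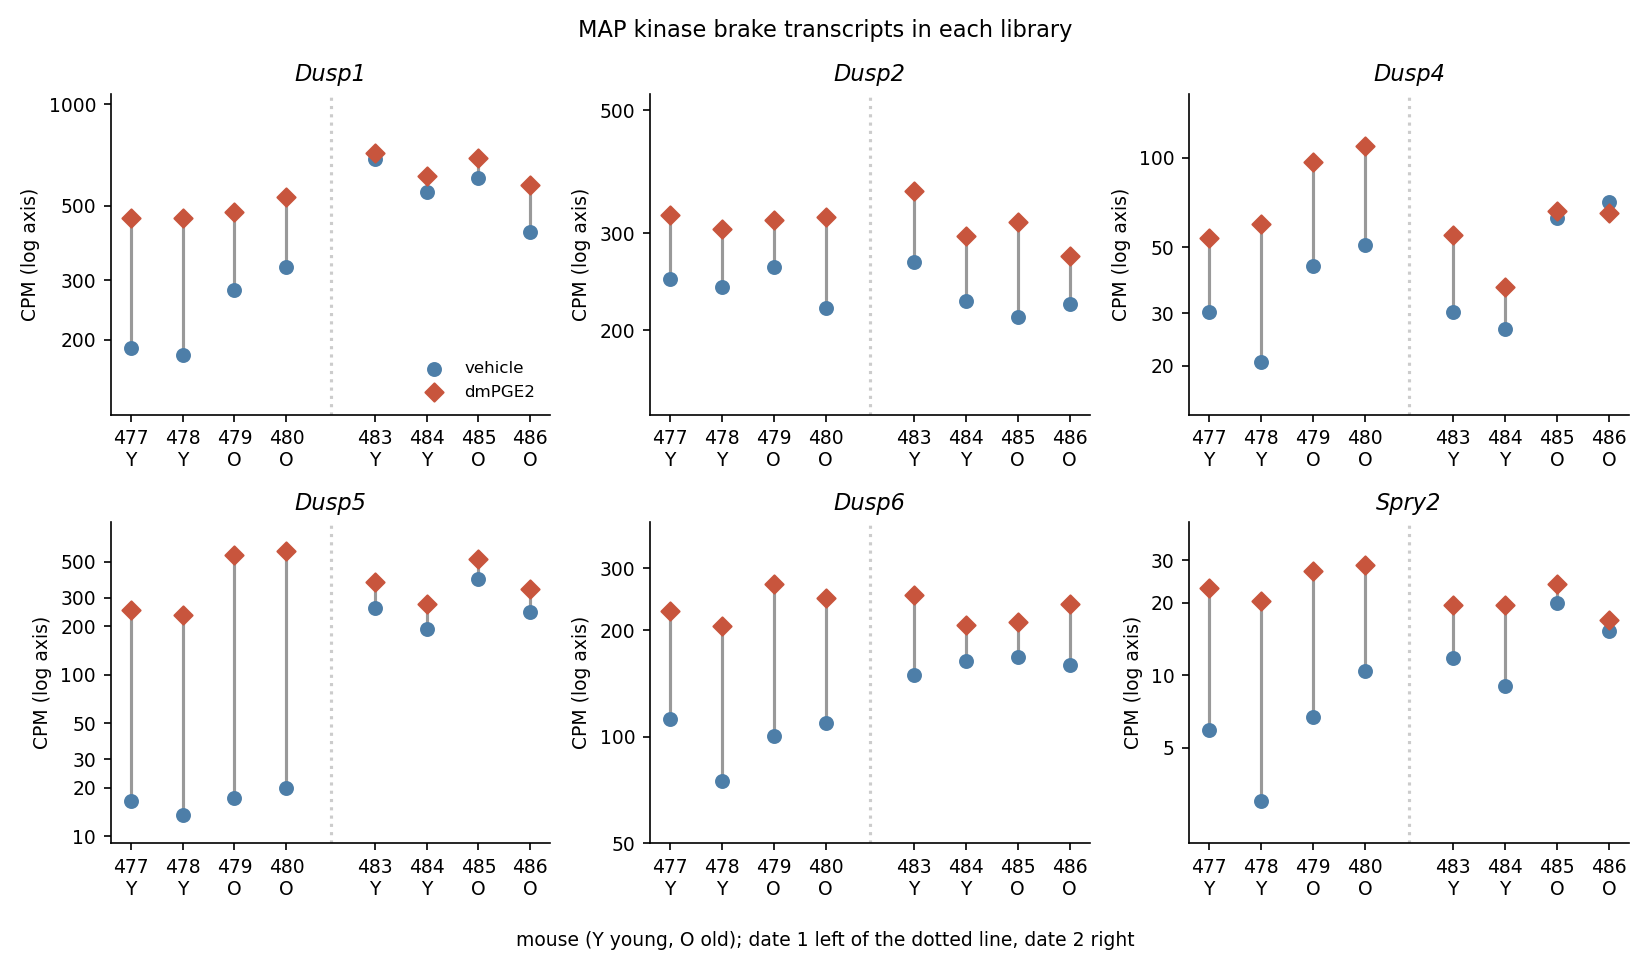
CPM (log axis) of the 6 genes in each of the 16 libraries, with the vehicle (circles) and dmPGE2 (diamonds) libraries of a mouse joined by a line; mice 477 to 480 belong to date 1 and 483 to 486 to date 2. The dmPGE2 library is higher in all 8 mice for every gene except Dusp4, where it is lower in mouse 486.

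The first question was what dmPGE2 does to these brakes within 1 hour. Over all 8 mice, Dusp2, Dusp6 and Spry2 rose, by 1.33-fold, 1.85-fold and 2.44-fold, in a fit with mouse as a block. Dusp1, Dusp4 and Dusp5 had larger fold values than Dusp2 (1.54-fold, 1.68-fold and 5.24-fold) but did not pass the threshold, an adjusted p under 0.05. So 3 of the 6 were called higher and 0 lower, where 0.509% of the 13942 genes tested were called higher and 0.1% lower. Their median log2 change was 0.82, beside a median of -0.00 over all genes tested. In bulk RNA of this kind, more cells of a type and more RNA per cell cannot be told apart. The count of 3 became 0 without mouse 477 and 1 without 478, 479 or 480, the mice of date 1. DESeq2 called all 6, beside 2.42% of genes called higher by it. limma-voom called 5, beside 1.37% called higher.

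Dusp2, first described as a phosphatase of activated lymphocytes, showed the steadiest response of the 6. On date 1 its level was 248 and 239.5 CPM in vehicle and 324 and 305 CPM in dmPGE2 for the young mice 477 and 478, and 260.1 and 219.7 against 317 and 321 CPM for the old mice 479 and 480. On date 2 it was 266 and 226 CPM against 358 and 296 for the young mice 483 and 484, and 211 and 223 against 314 and 272 for the old mice 485 and 486. All 8 dmPGE2 libraries lay above all 8 vehicle libraries, and the ratio within a mouse ran only from 1.22 to 1.49. Over all mice its log2 change was 0.41 ± 0.04 SE (edgeR quasi-likelihood test, Benjamini-Hochberg adjusted p = 0.00718), which was the smallest p of the 13942 genes although the change was small. Without mouse 477 the adjusted p was 0.0525.

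Dusp5, the nuclear phosphatase of ERK, showed the widest response. On date 1 its level was 16.6 and 13.6 CPM in vehicle and 252 and 233 in dmPGE2 for the young mice, and 17.4 and 19.9 against 552 and 587 CPM for the old mice. On date 2 it was 258 and 191 CPM in vehicle and 377 and 275 in dmPGE2 for the young mice, and 390.4 and 246 against 519.7 and 341 CPM for the old mice. The ratio was 15.2 to 31.7 on date 1 and 1.33 to 1.46 on date 2, so the groups of the first date were far apart while vehicle and dmPGE2 overlapped on the second. The change over all mice (log2 2.39 ± 0.94 SE) was not called (adjusted p = 0.379) in the fit that gives both dates 1 response.

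Dusp1, an early-response phosphatase of the nucleus, covered levels from 179.6 to 718 CPM. On date 1 it stood at 189 and 179.6 CPM in vehicle and 459.0 and 459.5 in dmPGE2 for the young mice, and at 282 and 328 against 480.5 and 529.6 CPM for the old mice. On date 2 it stood at 688 and 548 CPM in vehicle and 718 and 614 in dmPGE2 for the young mice, and at 606 and 417 against 694 and 578 CPM for the old mice. The arms did not overlap on date 1, and on date 2 they overlapped although each mouse was higher with dmPGE2, by 1.04 to 1.39 times.

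Dusp6, the cytoplasmic phosphatase of ERK, was higher with dmPGE2 in every mouse, by 1.26 to 2.74 times. On date 1 its level was 112 and 74.9 CPM in vehicle and 226 and 205 in dmPGE2 for the young mice, and 100.3 and 109 against 270.0 and 247 CPM for the old mice. On date 2 it was 149.7 and 164 CPM in vehicle and 252 and 208 in dmPGE2 for the young mice, and 168 and 159.8 against 211 and 237 CPM for the old mice. No vehicle library reached the lowest dmPGE2 library. Its log2 change over all mice was 0.89 ± 0.15 SE (adjusted p = 0.0433), and the call was lost in 6 of the 8 fits that left out a mouse, all but those without 484 or 485.

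Spry2, the Sprouty gene, had the lowest level, with 56 to 476 counts per library. On date 1 Spry2 stood at 5.94 and 3.01 CPM in vehicle and 23.0 and 20.2 in dmPGE2 for the young mice, and at 6.71 and 10.4 against 27.0 and 28.7 CPM for the old mice. On date 2 it stood at 11.7 and 9.05 CPM in vehicle and 19.5 and 19.5 in dmPGE2 for the young mice, and at 19.9 and 15.3 against 23.8 and 16.9 CPM for the old mice. All 8 mice were higher with dmPGE2, but the arms overlapped in the old mice of date 2. Its log2 change over all mice was 1.29 ± 0.25 SE (adjusted p = 0.0416), and the call was lost when mouse 477, 478, 479, 480 or 484 was left out and without the block (adjusted p = 0.0567).

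Dusp4, a nuclear phosphatase related to Dusp1, was the only one of the 6 with a lower dmPGE2 library. On date 1 its level was 30.4 and 20.5 CPM in vehicle and 53.9 and 59.96 in dmPGE2 for the young mice, and 43.4 and 51.1 against 96.7 and 109.9 CPM for the old mice. On date 2 it was 30.3 and 26.5 CPM in vehicle and 55.001 and 36.7 in dmPGE2 for the young mice, and 62.9 and 70.9 against 66.4 and 65.5 CPM for the old mice. The old mice of date 2 therefore showed almost the same level in both arms, at 0.924 and 1.06 times vehicle. Its change over all mice was log2 0.75 ± 0.15 SE (adjusted p = 0.0555), while without the block the adjusted p was 0.0410.

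The second question was whether the response was the same on both dates. When the response was fitted separately for the dates and ages, all 6 genes rose on date 1 and 2 of them, Dusp2 and Dusp5, rose on date 2, where 2.42% and 0.366% of the genes tested were called higher. On date 1 the rise was 22.3-fold for Dusp5, 4.11-fold for Spry2, 2.42-fold for Dusp6, 2.24-fold for Dusp4, 2.04-fold for Dusp1 and 1.32-fold for Dusp2. On date 2 Dusp2 rose 1.34-fold (adjusted p = 0.0150) and Dusp5 1.40-fold (adjusted p = 0.00170). Dusp6, at 1.41-fold, missed the threshold (adjusted p = 0.0503), and Spry2 (1.48-fold), Dusp4 (1.25-fold) and Dusp1 (1.17-fold) were not called. The 2 calls of date 2 were lost without the block, and that of Dusp2 there was also lost without mouse 483, 484 or 485. On date 1 the call of Dusp2 was lost without mouse 480 (adjusted p = 0.0935).

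**Figure D2:**
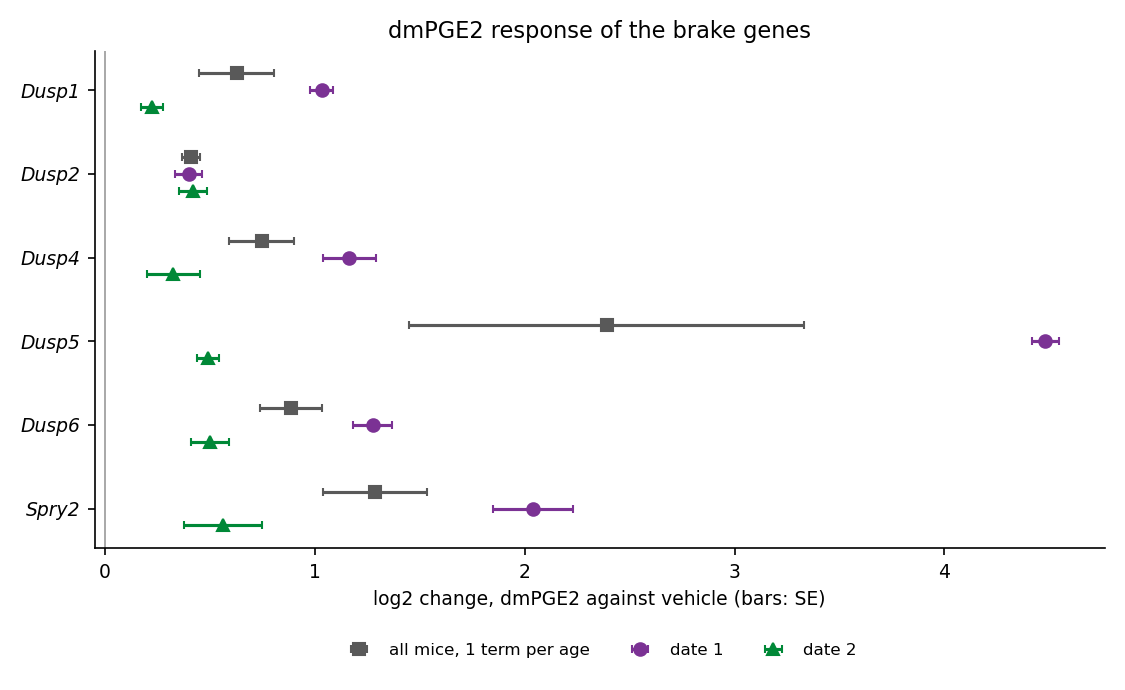
log2 change with dmPGE2 against vehicle for each gene, with SE, over all 8 mice (squares) and for the 4 mice of date 1 (circles) and of date 2 (triangles). Dusp2 has the same value on both dates, at 0.40 and 0.42, while Dusp5 falls from 4.48 to 0.49.

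The difference between the dates was tested itself. It was called for Dusp5 (date 2 minus date 1, log2 -3.99 ± 0.08 SE, adjusted p = 1.74e-10), Spry2 (-1.48 ± 0.26, adjusted p = 0.0180), Dusp1 (-0.81 ± 0.08, adjusted p = 0.000114) and Dusp6 (-0.77 ± 0.13, adjusted p = 0.0116). These 4 of 6 compare with 1.01% of the genes tested that were called with a lower response on date 2. For Dusp4 the difference was -0.84 ± 0.18 and missed the threshold (adjusted p = 0.0522). For Dusp2 it was 0.02 ± 0.09 (adjusted p = 0.982), so a difference as large as that of Dusp1 lies many standard errors away from its value. The calls of Dusp1 and Dusp5 were kept in all 8 fits that left out a mouse, that of Dusp6 in 4 (lost without 478, 479, 484 or 485) and that of Spry2 in 3 (lost without 478, 479, 483, 485 or 486).

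The levels in vehicle moved in the opposite sense. Dusp5 was 15.9-fold higher in the vehicle libraries of date 2 than in those of date 1 (log2 3.99 ± 0.17 SE, adjusted p = 1.23e-07). Dusp1 was 2.37-fold (adjusted p = 0.00572), Spry2 2.18-fold (adjusted p = 0.0208) and Dusp6 1.61-fold higher (adjusted p = 0.00279). These were 4 of 6, where 8% of the 13369 genes tested were higher on date 2. Dusp2 (log2 -0.07 ± 0.08) and Dusp4 (0.33 ± 0.15) were not called. The call of Spry2 was lost without mouse 478, 479, 483 or 485 and without a term for age (adjusted p = 0.176). The genes whose response differed between the dates were therefore the same 4 whose vehicle level differed. Both results use the vehicle libraries of both dates, with opposite sign, so they are not independent. The summed markers of other blood cells given above also differed between these libraries, and their part in this result was not tested.

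The same contrast in the dmPGE2 libraries gave other values. Dusp5 stood at 406 ± 189 CPM in the 4 libraries of date 1 and at 378 ± 103 CPM (both SD) in the 4 of date 2, a log2 difference of -0.01 ± 0.19 SE (adjusted p = 0.983). Dusp6 (-0.07 ± 0.09), Dusp2 (-0.05 ± 0.08) and Spry2 (-0.32 ± 0.15) were not called either. Dusp1 remained higher on date 2 (0.42 ± 0.08, adjusted p = 0.00816), and Dusp4 was lower on date 2 (-0.50 ± 0.13, adjusted p = 0.0350). In this arm 7.67% of the genes tested were called higher and 4.05% lower on date 2.

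**Figure D3:**
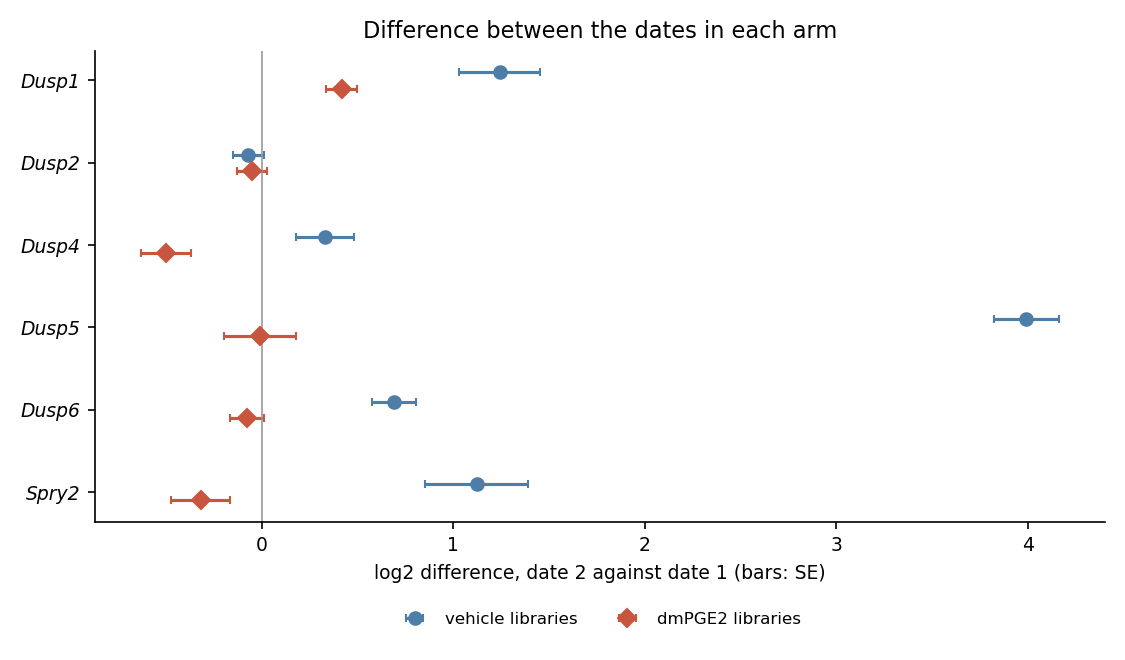
log2 difference of date 2 against date 1 with SE for each gene, in the 8 vehicle libraries (circles) and the 8 dmPGE2 libraries (diamonds). The vehicle value of Dusp5 is 3.99 and its dmPGE2 value -0.01, while both values of Dusp2 lie near 0.

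The third question was whether old and young stem cells hold these brakes at different levels. Dusp4 was higher in old mice in both arms, 2.06-fold in vehicle (log2 1.04 ± 0.15 SE, adjusted p = 0.00105) and 1.61-fold in dmPGE2 (0.69 ± 0.13, adjusted p = 0.00649). Its group means were 26.9 ± 4.65 CPM in young vehicle, 57.1 ± 12.2 in old vehicle, 51.4 ± 10.2 in young dmPGE2 and 84.6 ± 22.2 in old dmPGE2 (SD, n = 4 mice). The ages did not overlap in either arm. In vehicle the call held on date 1 alone (log2 0.88 ± 0.21, adjusted p = 0.0393) and on date 2 alone (1.22 ± 0.18, adjusted p = 0.0208), where 4.81% and 2.25% of the genes tested were called higher. In dmPGE2 it held on date 1 alone (0.86 ± 0.11, adjusted p = 0.000574) and not on date 2 alone (0.52 ± 0.22, adjusted p = 0.307), nor without a term for date (0.71, adjusted p = 0.0732), beside 10% and 1.21% of genes called higher on dates 1 and 2.

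Dusp5 was also higher in old mice in the dmPGE2 arm, 1.75-fold (log2 0.81 ± 0.19 SE, adjusted p = 0.0192). Its group means there were 284 ± 63.9 CPM in young and 499.9 ± 109.6 CPM in old mice (SD, n = 4), and the range of the old mice (341 to 587) overlapped that of the young (233 to 377). The difference was log2 1.23 ± 0.07 on date 1 alone (adjusted p = 3.32e-06) and 0.40 ± 0.22 on date 2 alone (adjusted p = 0.434), and the call was lost without mouse 477, 478 or 485. In vehicle Dusp5 was not called (log2 0.39 ± 0.15, adjusted p = 0.107).

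Spry2 had 1.77 times the level in old vehicle libraries and missed the threshold (log2 0.82 ± 0.27 SE, adjusted p = 0.0564). Over both dates Dusp1, Dusp2 and Dusp6 were called in neither arm, with log2 values between -0.12 and 0.20. On date 1 alone, however, Dusp1 was higher in old vehicle libraries (0.71 ± 0.11, adjusted p = 0.00532), against -0.28 ± 0.18 on date 2 alone (adjusted p = 0.445). In dmPGE2 on date 1 alone Dusp6 was also higher in old mice (0.26 ± 0.08, adjusted p = 0.0424), against -0.04 ± 0.14 on date 2 alone (adjusted p = 0.937). So 1 of the 6 was called higher in vehicle and 2 in dmPGE2, beside 8.47% of 13369 and 7.85% of 13279 genes tested, and 0 were called lower (8.86% and 6.41%). In the vehicle libraries of date 2, marker sums in old against young mice were 2345 to 2373 against 3547 to 4738 CPM for the neutrophil genes, 2299 to 2396 against 3660 to 4116 for the erythroid genes, 983 to 1127 against 1192 to 1722 for the monocyte genes and 198 to 273 against 383 to 384 for the T and NK cell genes. The B cell sums overlapped (65.1 to 108 against 94.5 to 102), and the stem cell sums were higher in old mice (4974 to 5029 against 3803 to 3971). On date 1 the neutrophil sum was higher in old vehicle libraries (396 to 447 against 222 to 263 CPM), but its single genes did not move together. Prtn3 (200 CPM) and Csf3r (120 CPM) had the highest means of these genes on date 1. On that date alone 10 of them were tested, with 2 called higher in old vehicle libraries, 1 lower and a median log2 difference of 0.03. Of all genes 4.81% were called higher there and 3.38% lower. The part of other blood cells in the age differences was not tested.

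**Figure D4:**
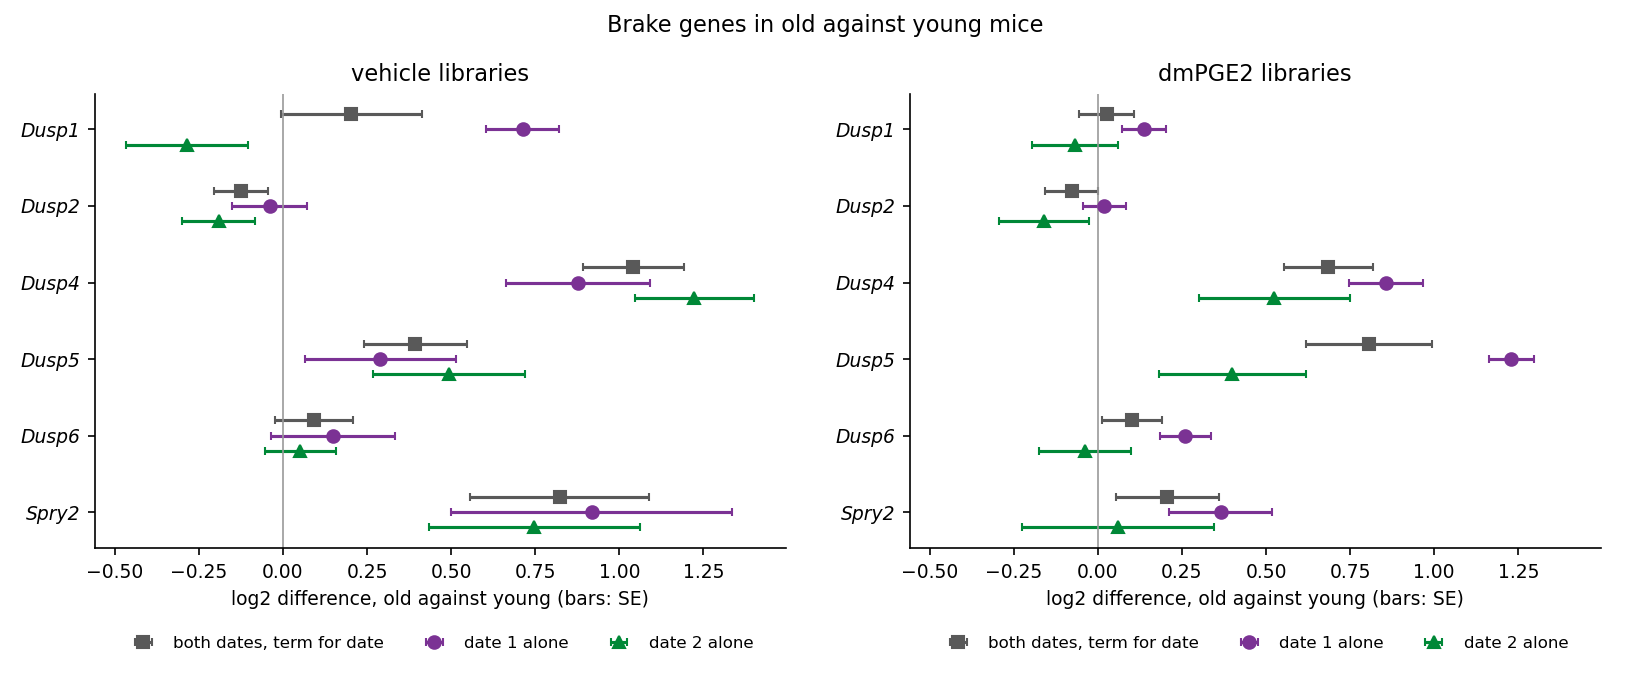
log2 difference of old against young mice with SE for each gene, in vehicle (left) and dmPGE2 libraries (right), over both dates (squares) and within date 1 (circles) or date 2 (triangles). Dusp4 lies above 0 in all 6 estimates, and Dusp5 in dmPGE2 is 1.23 on date 1 and 0.40 on date 2.

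Whether the response to dmPGE2 differs with age was tested as an interaction. Over both dates no gene was called by edgeR, while 955 of 13942 had p under 0.05 before adjustment and DESeq2 called 17. None of the 6 was among these 17, and DESeq2 gave Spry2 no adjusted p. The difference (old minus young, log2) was 0.42 ± 1.89 SE for Dusp5, -0.64 ± 0.49 for Spry2, -0.36 ± 0.31 for Dusp4, -0.18 ± 0.35 for Dusp1, 0.04 ± 0.09 for Dusp2 and -0.01 ± 0.30 for Dusp6. This fit gives both dates 1 response, so its errors also hold the difference between the dates. The error was smallest for Dusp2, and by this fit sizable differences in either direction remain possible for the other 5 genes. The fits within single dates, given next, had smaller errors for Dusp5 and Dusp1.

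With the 4 mice of date 1 alone, all 6 rose over these mice, in old mice and in young mice (3.78%, 2.18% and 2.7% of 13834 genes called higher). For 2 of the 6 the ages differed in response, as did 0.173% of all genes. Dusp5 rose more in old mice, by log2 4.95 ± 0.10 SE against 4.01 ± 0.10 in young mice (difference 0.93 ± 0.13, adjusted p = 0.0169). Dusp1 rose less in old mice, by 0.74 ± 0.07 against 1.32 ± 0.07 (difference -0.58 ± 0.10, adjusted p = 0.0460). For Dusp1 the old vehicle libraries of that date began from a higher level (282 and 328 CPM against 189 and 179.6), and the dmPGE2 libraries of both ages lay between 459.0 and 529.6 CPM. For Dusp5 the vehicle levels were alike (17.4 and 19.9 CPM against 16.6 and 13.6). On date 2 alone neither was called (Dusp5 -0.10 ± 0.12, Dusp1 0.22 ± 0.12, adjusted p = 1), nor in the fit with date and age terms averaged over the dates (adjusted p = 0.224 and 0.578). Each of these fits rests on 2 mice per age and date.

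Within each age over both dates, edgeR called 0 genes in old mice and 0 in young mice (0% in each age). Before adjustment 1096 and 1785 genes had p under 0.05. DESeq2 called 114 (0.818%) and 277 (1.99%) genes, with 2 and 4 of the 6 among them. For old and young mice the log2 changes were 0.43 ± 0.06 and 0.39 ± 0.06 for Dusp2 and 0.88 ± 0.21 and 0.89 ± 0.21 for Dusp6. Once the response was allowed to differ between dates, all 6 were called over the 8 mice (2.17% of genes called higher), 5 of the 6 rose in old mice and 6 in young mice (1.32% and 1.61% of genes tested called higher). Dusp4 in old mice was the exception, at log2 0.56 ± 0.12 (adjusted p = 0.0503). On date 2 alone 1 of the 6 was called in young mice, beside 0.177% of all genes.

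The brakes were set beside lists of genes linked to their pathway in the fit with date terms. The lists were chosen by gene name and no MAP kinase activity was measured. The signal behind a change of these genes was not tested. Of 29 ERK output genes tested, such as the early transcription factors, 20 rose on date 1 and 6 on date 2, with median log2 changes of 1.52 and 0.44, where 2.42% and 0.366% of all genes tested were called higher. Egr1, Junb, Fosl2 and Fos had the smallest p on date 1, with rises of 3.73-fold, 4.23-fold, 13.2-fold and 3.09-fold. On date 2 Egr1 rose 1.43-fold, Klf4 2.55-fold, Junb 1.42-fold and Fos 1.35-fold. For 17 of the 29 the response was called smaller on date 2, as for 1.01% of all genes. The medians of the 6 brakes on the 2 dates were 1.22 and 0.46, and the median over all genes was near 0 on both.

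Other brakes were mostly not called, and their counts stand beside 2.42% of all genes called higher on date 1 and 0.366% on date 2. Of 16 other dual-specificity phosphatases tested, 2 rose on date 1 (median log2 change of the list -0.05) and 0 on date 2 (0.13). Dusp18 rose 2.28-fold, and Dusp8, a phosphatase of stress-activated MAP kinases, had 0 to 3 counts in the vehicle and 16 to 65 counts in the dmPGE2 libraries of date 1. Of 24 other receptor and Ras brakes, 5 rose on date 1 (median 0.09) and 1 on date 2 (0.04). Socs3, an inhibitor of cytokine receptor signaling, rose 9.78-fold and 1.49-fold on the 2 dates. Spry1, the Sprouty relative of Spry2, rose 2.02-fold on date 1 and had a log2 change of -0.22 ± 0.09 SE on date 2 (adjusted p = 0.533), and the dates differed (adjusted p = 0.000169). Errfi1, an inhibitor of the epidermal growth factor receptor, rose 4.01-fold and Cish, a cytokine-inducible inhibitor, 1.38-fold on date 1.

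The machinery between receptor and brake showed no called change on either date. Of 48 genes of the MAP kinase cascade, from Ras proteins to the kinases downstream of ERK and p38, 0 were called on date 1 or 2, with medians of 0.06 and -0.01. Of 24 receptor genes, among them Kit, Tek and the prostaglandin E2 receptors, 0 were called, with medians of -0.03 and -0.02.

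**Figure D5:**
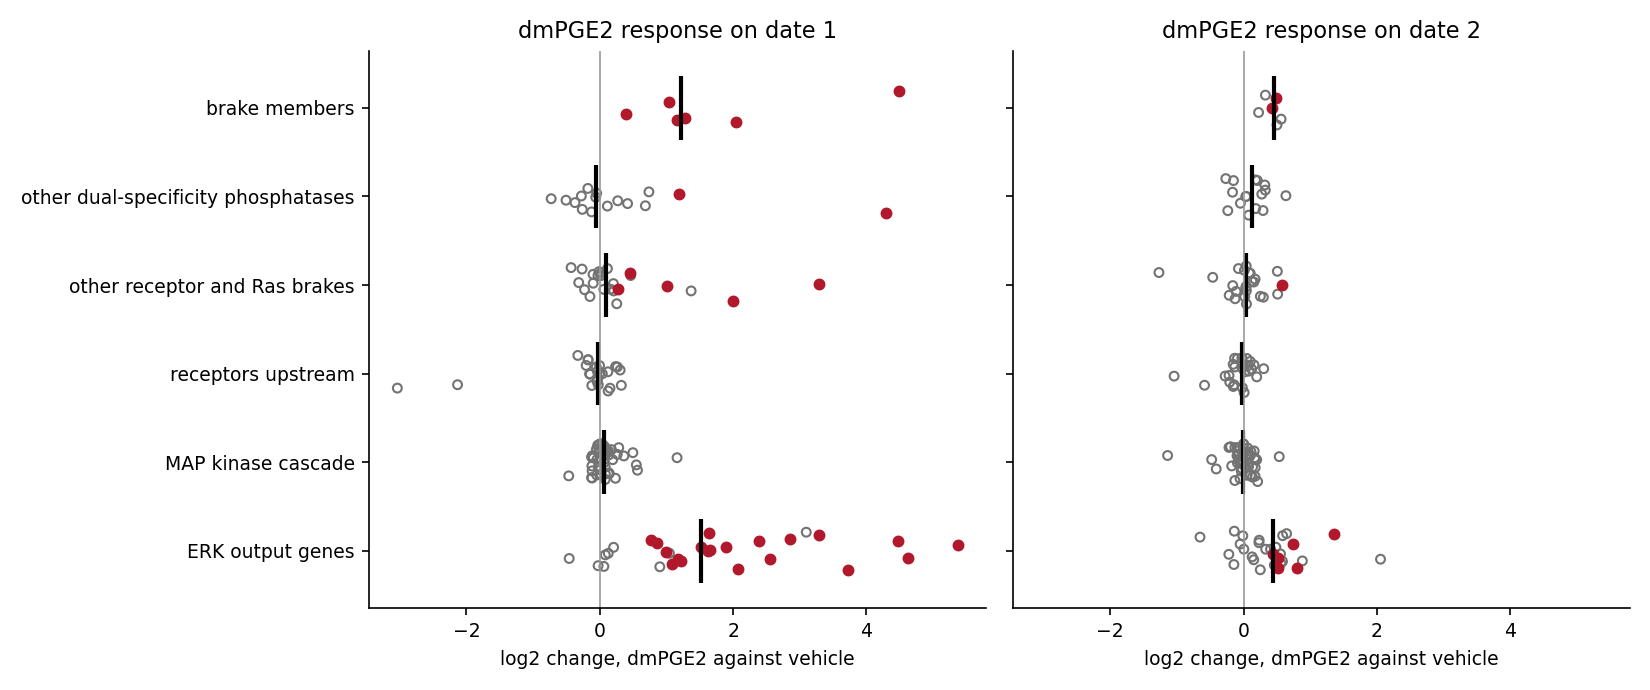
log2 change with dmPGE2 of each tested gene of 6 pathway lists on date 1 (left) and date 2 (right), with filled red points for adjusted p under 0.05, open points for the rest and a black bar at the list median. The 6 brakes and the ERK output genes lie to the right of the other lists, with medians of 1.22 and 1.52 on date 1 and 0.46 and 0.44 on date 2.

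The genes whose response was most like that of each brake were taken by Pearson correlation of the 8 within-mouse log2 differences over 10952 candidate genes. For Dusp5 they were Klf4 (r = 0.996), Rrad (0.994) and Stk17b (0.993). For Dusp1 they were Emp2 and Plekha7 (both 0.973) and Pdpr (0.970), and for Dusp4 Rasal3 (0.975), Smek1 (0.948) and Slc38a2 (0.945). For Dusp6 they were P2ry10 (0.977), Fzd9 (0.965) and Btg1 (0.961), and for Spry2 Lin7c and Nr4a3 (both 0.971) and Rb1cc1 (0.966). For Dusp2, whose response hardly varied, they were Clspn (0.964), Usp14 (0.927) and Pih1d1 (0.922). The 8 points of a gene share 2 dates and, within a mouse, both libraries, so these values describe likeness over 8 mice and carry no test.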

How the data were processed

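The deposited table holds raw read counts per gene for 16 libraries, made by the authors with no normalization, and the columns were matched to samples by name, with 0 left unmatched. The deposited gene length, another value of the table, was used only for levels per kilobase. STAR 2.5.2b, featureCounts, Subread 1.5.1 and mm10 are named per the submitters' processing notes, without role or order; the strand setting was not given in the sources used here, nor was the annotation. The table held 14829 genes and 2504 empty lines. A count of 0, read as up to 3 counts, allows 0.156 to 0.231 CPM in a library, for counting error only.

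Genes were tested with edgeR 4.0.16 (TMM scaling, filterByExpr by age and treatment, robust quasi-likelihood test) in R 4.3.3 over all genes, with Benjamini-Hochberg adjustment and a threshold of 0.05. The dmPGE2 fits held all 16 libraries with mouse as a block and dmPGE2 terms by age (6 residual degrees of freedom) or by date and age (4). The pairing comes from the series design, which says that each sample was split; vehicle and dmPGE2 deviations of a mouse correlated at 0.374 to 0.626, and at 0.0140 to 0.181 after removal of date means. Age and date were each tested within an arm with the other as a term (5). SE is the absolute log2 change over the square root of F. CPM is TMM-scaled. Fits within single dates and by DESeq2 1.42.0 and limma-voom 3.58.1 were alternatives. Mice are separate animals, and libraries of a group differed beyond sampling noise. The fits were checked on simulated data. The members, lists, fits and the rule for named genes (the 6 members, up to 4 called genes of a list by smallest p, and the 3 most like genes among those with a mean log2 CPM of at least 2 that are not predicted genes) were chosen with earlier results of these data known. Dusp4 is named without its upstream sequence.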

Additional observations from a re-analysis of the deposited data

Results flagged for a closer look

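Dusp2 in the dmPGE2 library of old mouse 486 stood apart from its group, at 272 CPM against 314 to 321 in the other 3 mice. Among the 24 sets of 4 libraries looked at (6 genes in 4 groups) chance alone gives about 1 such library in 20 sets.

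The dmPGE2 response differed between the dates, by a test of the difference itself, for Dusp5 (log2 -3.99), Spry2 (-1.48), Dusp1 (-0.81) and Dusp6 (-0.77), each date 2 minus date 1.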

How the results depend on the processing

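Over both dates Dusp2, Dusp6 and Spry2 were called for dmPGE2, and Dusp4 (both arms) and Dusp5 (dmPGE2 arm) for age. The directions of these calls held under every setting run. Some calls made on date 1 alone had an estimate of the opposite sign on date 2 alone, which was not called. They were Dusp1 in old against young vehicle (0.71 and -0.28) and Dusp6 in old against young dmPGE2 (0.26 and -0.04). The interactions of Dusp5 (0.93 and -0.10) and Dusp1 (-0.58 and 0.22) had opposite signs as well, again with no call on date 2. RLE scaling and the absence of a filter on low counts left every count of genes and of members within 1.5 times. DESeq2 called 443, 114, 277 and 17 genes for all, old and young mice and the interaction in place of 85, 0, 0 and 0, with 6, 2 and 4 of the 6 in the first 3. It called 133 on date 2 (4 of the 6) and 246 for the date difference in place of 54 and 151. For age in vehicle DESeq2 called 3 of the 6, beside 2856 of 13369 genes (21.4%). limma-voom called 225 genes and 5 of the 6 in all mice. For age in vehicle it called 2 of the 6, beside 2545 genes (19%). Without robust dispersion 144 genes were called in all mice. Without the replicate block the count in all mice was 39, with a term for date 175, and on date 2 it was 10 with 0 of the 6; no other count of the paired fits moved by over 1.5 times. Within date 1 alone, 725, 373 and 477 genes were called in all, old and young mice (6 of the 6 each), 24 for the interaction (2 of the 6) 1092 for age in vehicle (2 of the 6) and 2236 for age in dmPGE2 (3 of the 6). Within date 2 alone they were 51, 5 and 25 (1 of the 6 in young), 483 for age in vehicle and 264 for age in dmPGE2 (0 of the 6). With dmPGE2 terms by date and age they were 347, 210, 257 and 1 (6, 5 and 6 of the 6 in the first 3). Without a term for date 971 genes were called for age in vehicle and 804 in dmPGE2 (1 of the 6), and without a term for age 559 between the dates. The contrast of the dates taken in dmPGE2 libraries called 2 of the 6. Its sign was opposite to that in vehicle for Dusp4 (-0.50), which was called. The same held for Dusp5 (-0.0087), Dusp6 (-0.075) and Spry2 (-0.32), which were not called. Leaving out a mouse gave 0 to 166 genes and 0 to 4 of the 6 in all mice, 0 to 0 and 0 to 0 in old, 0 to 4 and 0 to 0 in young, 0 to 2 and 0 to 0 for the interaction, 236 to 446 and 5 to 6 on date 1, 39 to 57 and 1 to 3 on date 2, 100 to 160 and 2 to 5 for the date difference, 1448 to 2129 and 1 to 2 for age in vehicle, 1104 to 2167 and 1 to 2 for age in dmPGE2, and 902 to 1346 and 3 to 4 between the dates in vehicle. In the date fits a lone mouse was assumed to vary like the others. The causes were not tested. Spry2, with 56 to 476 counts, is the least precise.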

Other observations

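In old against young vehicle libraries, 10 of 28 ERK output genes were higher and 0 lower, with a median log2 difference of 0.66, beside 8.47% of all genes called higher and 8.86% lower. On date 1 alone 12 of 28 were called higher and 1 lower, beside 4.81% and 3.38% of all genes. On date 2 alone 0 of 29 were called, beside 2.25% and 1.31% of all genes, although 25 of the 29 lay above 0 (median 0.47). Egr3 was 5.80-fold, Egr1 2.05-fold, Ier2 1.65-fold and Klf6 1.59-fold higher in old mice. In the dmPGE2 libraries 12 of 29 were higher and 0 lower (median 0.52), beside 7.85% and 6.41% of all genes. On date 1 alone 20 of 29 were higher and 2 lower, beside 10% and 6.72% of all genes. On date 2 alone 0 of 30 were called (median 0.28), beside 1.21% and 0.74%. The called genes included Egr3 (3.85-fold), Junb (1.69-fold), Egr1 (1.67-fold) and Hbegf (2.18-fold), a ligand of the epidermal growth factor receptor. The neutrophil sum in vehicle was 396 to 447 CPM in old and 222 to 263 CPM in young mice on date 1, and 2345 to 2373 against 3547 to 4738 CPM on date 2. The erythroid sum was 1860.4 to 2082 against 1851 to 2050.1 CPM and 2299 to 2396 against 3660 to 4116 CPM. Prtn3 and Csf3r had the highest means of the neutrophil list on date 1. On that date alone 2 of its 10 tested genes were called higher in old vehicle libraries and 1 lower (median log2 difference 0.03). The part of neutrophils and erythroid cells was not tested.

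Among the other receptor and Ras brakes, Socs2, an inhibitor of cytokine receptor signaling, was 4.97-fold lower in old vehicle libraries and 4.09-fold lower in old dmPGE2 libraries, while Socs3 was 2.72-fold and 1.69-fold higher. In vehicle 3 of 24 were higher and 1 lower, and in dmPGE2 5 were higher and 3 lower, beside the same shares of all genes as above. On date 2 alone 0 were higher and 1 lower in each arm, beside 2.25% and 1.31% of all genes in vehicle and 1.21% and 0.74% in dmPGE2. Spry4, another Sprouty gene, was 2.48-fold higher in old dmPGE2 libraries. Dusp3 was higher in old mice in both arms (1.55-fold and 1.61-fold). Of 15 other dual-specificity phosphatases tested, 2 were higher and 0 lower in each arm, beside the same shares. In vehicle 0 of 15 were called on date 1 alone or date 2 alone, beside 8.19% and 3.56% of all genes. In dmPGE2 3 of 16 were higher on date 1 alone and 0 of 15 on date 2 alone, beside 10% and 1.21%.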
